A study of Bos grunniens with 6 samples.

Results

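miR-146a, miR-146b and miR-155 are 3 rows of a small-RNA table that lists 2853 entries for cultured yak (Bos grunniens) hair follicle cells, 757 with cattle miRNA names and 2096 predicted. They were chosen by name, as every row that is miR-146a, miR-146b or miR-155 once the species prefix and any arm suffix are removed. The rows found were bta-miR-146a, bta-miR-146b and bta-miR-155, 1 mature sequence for each name. The dermal papilla cells, a cluster of mesenchymal cells inside the follicle bulb, have 3 libraries. The hair matrix cells, which are the epithelial cells that grow around the papilla and form the hair shaft, also have 3 libraries. They are called papilla and matrix cultures where values are given. Both cell types came from skin labelled WT, were isolated and cultured, and shared a DMEM/F12 medium with IGF1, EGF and FBS. The labels call the libraries biological replicates but name no animal, passage or culture, so p-values reflect only how much these libraries vary, which may in part be technical.

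miR-146 and miR-155 are the best known miRNAs of the innate immune response. Both are induced through NF-kB in human and mouse cells exposed to bacterial products or cytokines. miR-146a and miR-146b, made from separate genes, repress the signalling adaptors IRAK1 and TRAF6 and so dampen the pathway that induces them. miR-155, cut from the non-coding BIC transcript, represses SOCS1 and the phosphatase INPP5D, and in macrophages it supports the response. In human skin, miR-146a is also known from keratinocytes, where it limits cytokine production.

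The 3 mature sequences are printed from the deposited table, 5′ to 3′ and as DNA letters, because their seeds decide which targets each can pair with. Capitals mark the seed, bases 2 to 8.
miR-146a: tGAGAACTgaattccataggttgt
miR-146b: tGAGAACTgaattccataggctgt
miR-155: tTAATGCTaatcgtgataggggt

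miR-146a and miR-146b share the seed GAGAACT, and no other of the 2853 entries has it at bases 2 to 8. miR-155 has the seed TAATGCT, which no other entry has at that place. The miR-146 pair is identical in 23 of 24 bases. Counted from 1 at the 5′ end of miR-146a, the difference is T21C, marked in capitals in the following lines.
miR-146a: tgagaactgaattccataggTtgt
miR-146b: tgagaactgaattccataggCtgt

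Reads that end before that base cannot be told apart between the pair. How the authors' counting divided such reads is not given in the sources used here, so the separate values of miR-146a and miR-146b are uncertain and their sum is given as well. No entry other than its partner lay within 1 mismatch over at least 18 aligned bases of either, and no entry did so for miR-155.

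Levels are in RPM, which divides the reads counted for an entry by the library total and multiplies by 1000000. The library totals were 23904796 to 24693655 reads, 71.7% to 73.5% of them on listed entries, and 3 reads, used as the floor of detection, equal 0.121 to 0.125 RPM. The cell labels were compared with miRNA markers. The marker lists were chosen with earlier results of these data known, so this is not an independent check of the labels. Of 11 epithelial names 10 were found, and miR-203 was not among them. All 10 epithelial entries were higher in hair matrix cells and all 9 mesenchymal entries were higher in dermal papilla cells. Over all 503 tested entries, 19.9% were called higher in hair matrix cells and 25.2% in dermal papilla cells, by the criteria given below. Summed, the epithelial entries held 397 to 472 RPM in dermal papilla libraries and 84491 to 87204 RPM in hair matrix libraries. The mesenchymal entries held 98451 to 101369 RPM in dermal papilla libraries and 1296 to 1537 RPM in hair matrix libraries.

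The miR-146 pair and miR-155 differed between the cell types in opposite directions. Both miR-146 entries were lower in dermal papilla cells than in hair matrix cells, and miR-155 was higher. All 3 were called by limma, which here means a change of 2-fold or more on the log2(RPM + 1) scale with adjusted p below 0.05. This count of 3 of 3 stands against a background of 45.1% of the 503 tested entries called in either direction, with 25.2% higher in the papilla cultures and 19.9% higher in the matrix cultures. The 127 and 100 calls behind those shares became 109 and 137 after median centring. In bulk cultures, fewer cells that carry a miRNA and less of it per cell cannot be told apart.

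miR-146a, a brake on NF-kB signalling, stood at 107, 107 and 111 RPM in the dermal papilla libraries. In the hair matrix libraries it stood at 651, 748 and 596 RPM. Every hair matrix library was above every dermal papilla library. miR-146a averaged 108 ± 2.32 RPM in papilla cultures and 665 ± 77.1 RPM in matrix cultures (SD, n = 3 each), which is 6.13-fold higher in hair matrix cells. Its log2 change, dermal papilla minus hair matrix, was -2.60 ± 0.085 (SE), with a 95% interval of -2.80 to -2.40 and a limma adjusted p of 8.48e-08. It ranked 125th of all entries by mean level in papilla cultures and 57th in matrix cultures.

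miR-146b, its near-identical relative, was the scarcest of the 3 in dermal papilla cells, at 18.1, 19.9 and 22.02 RPM. The hair matrix libraries held 181, 171 and 191 RPM, again with no overlap. The means were 20.02 ± 1.96 RPM in papilla cultures and 181 ± 10.4 RPM in matrix cultures (SD, n = 3 each), a 9.04-fold difference. The log2 change was -3.12 ± 0.086 (SE), with a 95% interval of -3.32 to -2.91 and a limma adjusted p of 3.30e-08. After quantile normalization the change was larger, at -3.77. Among the 100 entries called higher in hair matrix cells, miR-146b was 25th and miR-146a 34th by the size of the log2 change.

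miR-155, the member known to support inflammation, went the other way. It stood at 403, 394 and 389 RPM in the dermal papilla libraries and at 117, 116 and 124 RPM in the hair matrix libraries. The 2 sets did not overlap, and the dermal papilla libraries lay within 14.1 RPM of each other. The means were 395 ± 7.17 RPM in papilla cultures and 119 ± 4.24 RPM in matrix cultures (SD, n = 3 each), a 3.32-fold difference. The log2 change was 1.72 ± 0.049 (SE), with a 95% interval of 1.61 to 1.84 and a limma adjusted p of 3.92e-08. By size it was 87th of the 127 entries called higher in dermal papilla cells, and its level ranked 74th of all entries there and 104th in hair matrix cells. Complete separation of the papilla from the matrix libraries, seen for all 3 members, was common in the table, at 84.1% of tested entries.

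**Figure D1:**
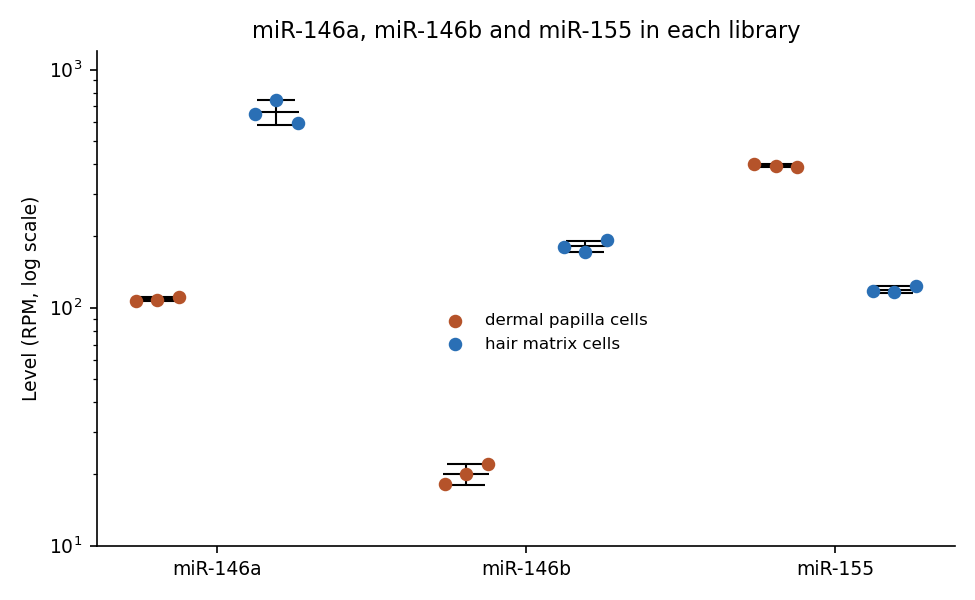
Level of each miRNA in RPM on a log axis, with 1 point per library, dermal papilla cells left of hair matrix cells, a long horizontal bar at the mean and error bars of 1 SD (n = 3). miR-146a and miR-146b lie lower in the dermal papilla libraries than in the hair matrix libraries, and miR-155 lies higher.

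The precision of these values differed by member. The dermal papilla libraries held 2555 to 2695 reads of miR-146a, 433 to 534 of miR-146b and 9424 to 9630 of miR-155. The hair matrix libraries held 14304 to 18314, 4180 to 4596 and 2840 to 2973 reads of the same miRNAs. Counting error alone gives miR-146a a coefficient of variation of 1.96% in dermal papilla cells, where 2.14% was observed, and of 0.785% in hair matrix cells, where 11.6% was observed. The hair matrix spread of miR-146a was thus far above counting error, with replicate 2 the highest library and replicate 3 the lowest. For miR-146b the observed value was 9.77% in papilla cultures, against 4.56% from counting, and 5.73% in matrix cultures, against 1.51% from counting. For miR-155 it was 1.81% in papilla cultures, against 1.03%, and 3.57% in matrix cultures, against 1.86%. The values from counting cover counting error only and treat every read as an independent molecule. Amplified reads may not be independent, so the error from counting may be larger than these values.

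The sum of miR-146a and miR-146b does not change with how shared reads were split between them, provided each was counted for 1 entry. Whether shared reads were instead counted for both or left out is not known, and the sum would then change too. It stood at 125, 127 and 133 RPM in the dermal papilla libraries and at 831, 919 and 787 RPM in the hair matrix libraries. The hair matrix libraries were all higher, by 6.58-fold in the mean. Fitted in place of the pair, the sum had a log2 change of -2.71 ± 0.067 (SE), with a 95% interval of -2.87 to -2.55 and a limma adjusted p of 1.81e-08.

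miR-146a was the larger of the pair in every library. There were 5.90, 5.39 and 5.05 reads of miR-146a per read of miR-146b in the dermal papilla libraries, against 3.60, 4.38 and 3.11 in the hair matrix libraries. The ratio was higher in every dermal papilla library, although both miRNAs were less abundant there. miR-146a made up 84.4% ± 1.03 of the pair in papilla cultures and 78.5% ± 2.87 in matrix cultures (SD, n = 3 each). The log2 ratio differed by 0.57 between the cell types (exact permutation test, two-sided, p = 0.1), the smallest p that 3 against 3 libraries allow. This ratio depends on how reads shared by the pair were divided.

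The order of the members within a library turned over between the cell types. In each dermal papilla library miR-155 was the most abundant, miR-146a came next and miR-146b was last. In each hair matrix library the order was miR-146a, miR-146b and miR-155. No neighbouring pair in either order overlapped between libraries. A library held 3.77, 3.66 and 3.50 reads of miR-155 per read of miR-146a in papilla cultures, and 0.180, 0.155 and 0.208 in matrix cultures. This ratio is taken within a library and so does not depend on the scaling between libraries. It does depend, as the order may, on how reads shared by the miR-146 pair were divided. Its log2 value averaged 1.86 ± 0.055 in papilla cultures and -2.48 ± 0.21 in matrix cultures (SD, n = 3 each), a difference of 4.34 (exact permutation test, two-sided, p = 0.1, the smallest possible).

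The 3 miRNAs together held 528, 521 and 522 RPM in the dermal papilla libraries and 948, 1035 and 911 RPM in the hair matrix libraries. The summed level was higher in every hair matrix library, by 1.84-fold in the mean. miR-155 made up 75.5% ± 0.923 of that sum in papilla cultures and 12.4% ± 1.19 in matrix cultures (SD, n = 3 each). Ligation and amplification can favour some sequences over others, so levels of different miRNAs in a library are read counts and were not calibrated against known amounts.

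**Figure D2:**
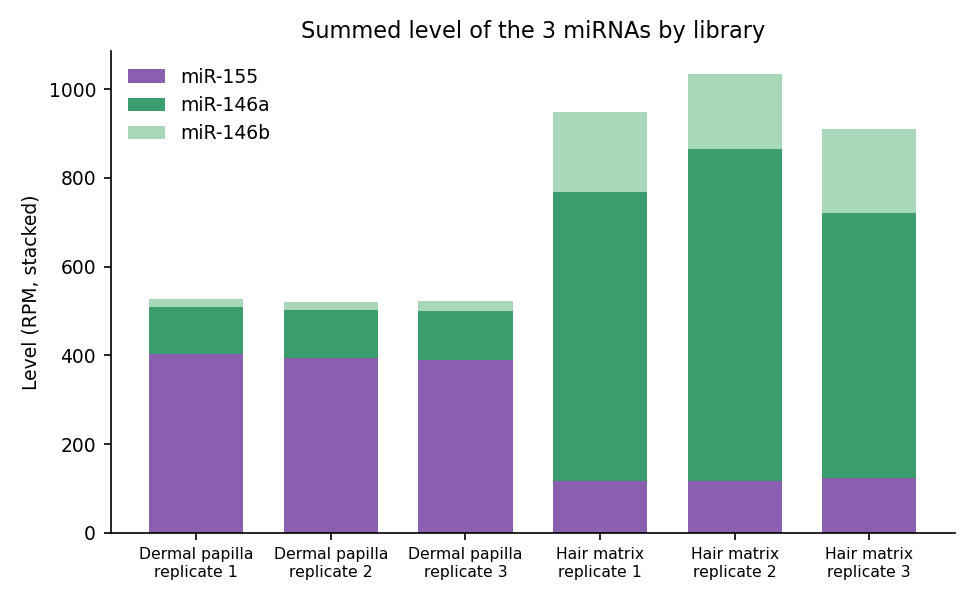
RPM of miR-155, miR-146a and miR-146b stacked for each of the 6 libraries. The dermal papilla bars reach 521 to 528 RPM and are mostly miR-155, and the hair matrix bars reach 911 to 1035 RPM and are mostly miR-146a.

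Each member kept its direction and its call under 14 other settings tried on all 6 libraries and in 6 runs without 1 library. In the plot of tested entries the 3 members lie at moderate to high abundance, away from the many entries of low abundance at the left edge. Each member reached 1 RPM in all 6 libraries, so none passed that filter through 1 cell type alone.

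**Figure D3:**
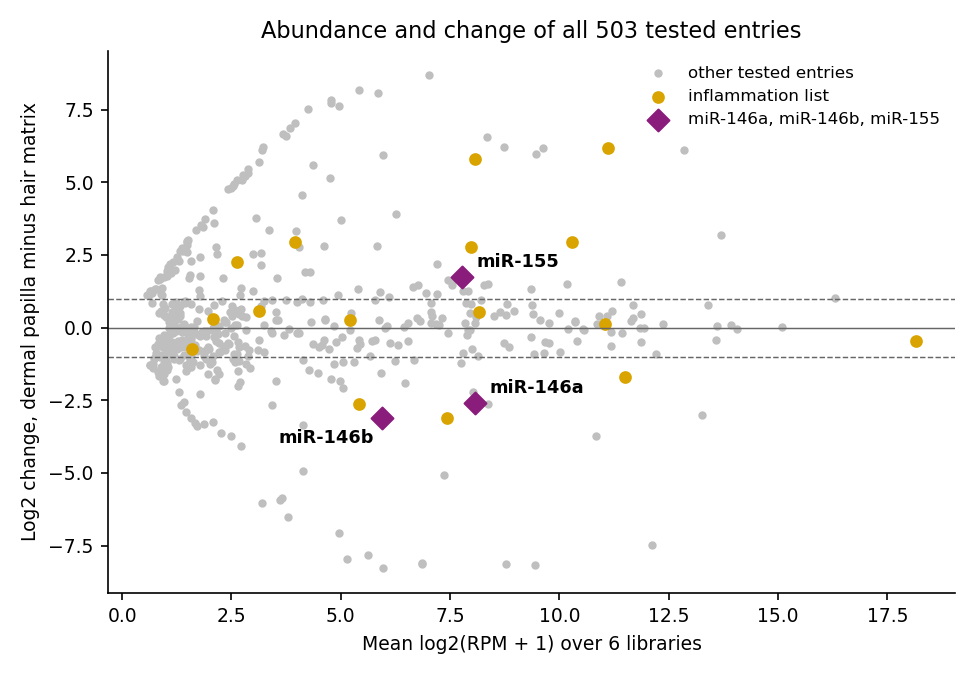
Mean log2(RPM + 1) over the 6 libraries against the log2 change, dermal papilla minus hair matrix, for the 503 tested entries. Diamonds mark miR-146a at -2.60, miR-146b at -3.12 and miR-155 at 1.72, larger dots mark the inflammation list, and dashed lines mark 2-fold.

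**Figure D4:**
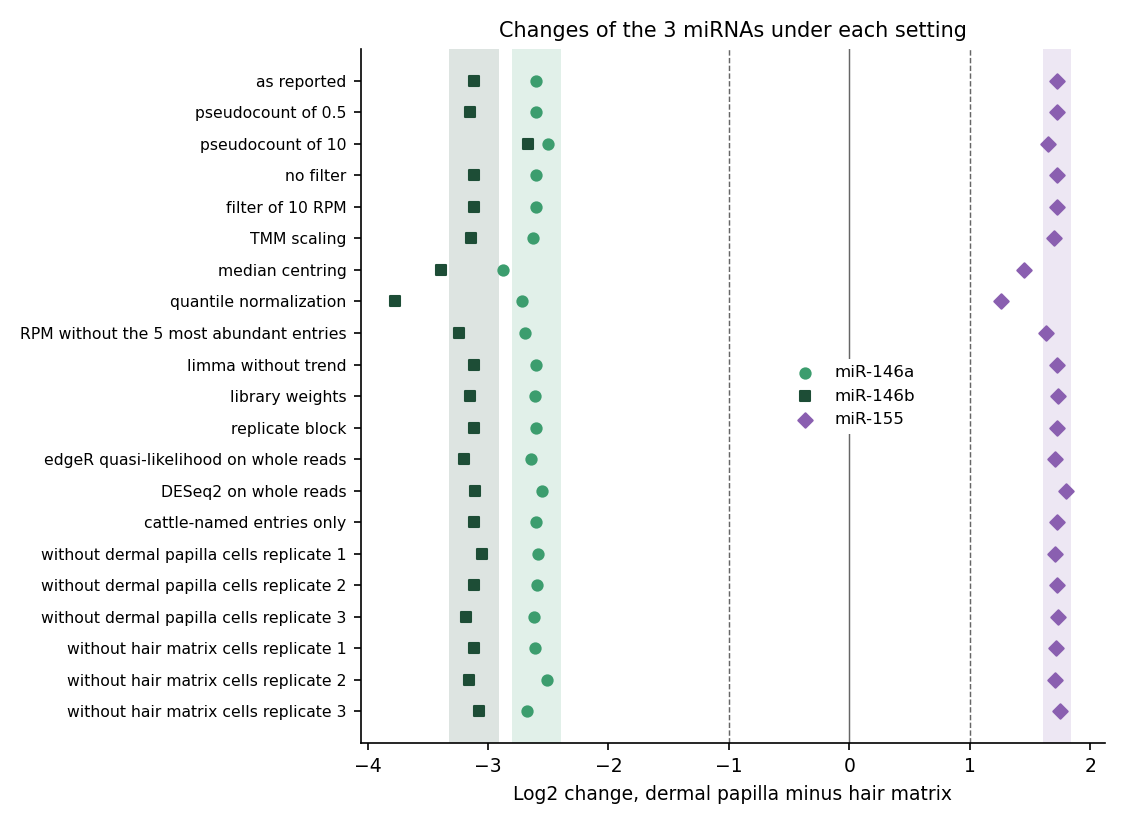
Log2 change of each member, dermal papilla minus hair matrix, as reported and under each alternative setting, with shaded bands for the 95% limma interval as reported and dashed lines at 2-fold. All miR-146a and miR-146b points lie left of the lower dashed line and all miR-155 points right of the upper one, with quantile normalization the farthest from the reported values for miR-146b, at -3.77, and for miR-155, at 1.26.

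The other miRNAs linked to NF-kB or cytokine responses in mammals, mostly in human or mouse cells, did not share 1 direction. Of 17 names on this list 16 were found, as 19 entries, and 16 entries were tested. Of these, 6 were called higher in papilla cultures, 3 were called higher in matrix cultures and 7 were not called. The called share, 56.2%, is close to the 45.1% of all tested entries, and the median log2 change was 0.42 against -0.01 over all tested entries. After median centring, and with edgeR or DESeq2 on whole reads, 4 were called higher in hair matrix cells.

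Of the entries higher in dermal papilla cells, the largest changes were those of both arms of miR-199a. Repression of the NF-kB kinase gene IKBKB in human cells is linked to miR-199a, and is not claimed here for each arm. miR-199a-3p stood at 18880.3 ± 883 RPM in papilla cultures and 257 ± 23.96 RPM in matrix cultures, and miR-199a-5p at 1997 ± 85.97 RPM in papilla cultures and 35.2 ± 6.11 RPM in matrix cultures. These arms are also on the mesenchymal list, and miR-199a-3p is near-identical to miR-199c. miR-125b, which represses TNF in mouse macrophages, was at 3457 ± 168 RPM in papilla cultures and 445 ± 11.7 RPM in matrix cultures, a log2 change of 2.96. miR-10a, which restrains NF-kB in endothelial cells, had a log2 change of 2.77, but it is near-identical to miR-10b and its own value is uncertain.

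miR-132 and miR-212 are made from 1 transcript, and miR-132 is induced in human monocytes by bacterial products. miR-132 stood at 39.95, 38.9 and 48.6 RPM in dermal papilla libraries and at 4.66, 4.21 and 4.96 RPM in hair matrix libraries. miR-212 stood at 12.01, 11.8 and 14.1 RPM in dermal papilla libraries and at 1.70, 1.84 and 1.92 RPM in hair matrix libraries. Both were higher in every dermal papilla library, with log2 changes of 2.95 (limma adjusted p = 1.62e-07) and 2.27 (limma adjusted p = 3.38e-07). They thus had the direction of miR-155 and not that of the miR-146 pair.

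The entries higher in hair matrix cells were miR-31, miR-221 and miR-222. miR-31, which is raised in keratinocytes of human psoriasis, was at 16.4 ± 2.16 RPM in papilla cultures and 106 ± 1.43 RPM in matrix cultures, a log2 change of -2.62. miR-222 and miR-221, which share a transcript and repress KIT, had log2 changes of -3.10 and -1.72. miR-221 is near-identical to the entry miR-2481, so its value is uncertain.

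The 7 entries not called include the most abundant of the list. Apart from miR-126-3p (limma adjusted p = 0.079), each had a limma adjusted p below 0.05, so not called does not mean unchanged. All had changes below 2-fold on the log2(RPM + 1) scale. On that scale miR-21-3p had a log2 change of -0.74, but it was 2.15-fold higher in matrix cultures in RPM. miR-21-5p, which represses PDCD4, was at 249535 ± 10032 RPM in papilla cultures and 344206 ± 7940 RPM in matrix cultures, and its log2 change of -0.46 was below 2-fold. miR-125a had a log2 change of 0.14 and miR-181b, near-identical to miR-181d and so uncertain, one of 0.55, and miR-9-5p, which represses NFKB1 in human monocytes, one of 0.26. miR-187 and miR-223, known from monocytes and neutrophils, were under the filter and were not tested.

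**Figure D5:**
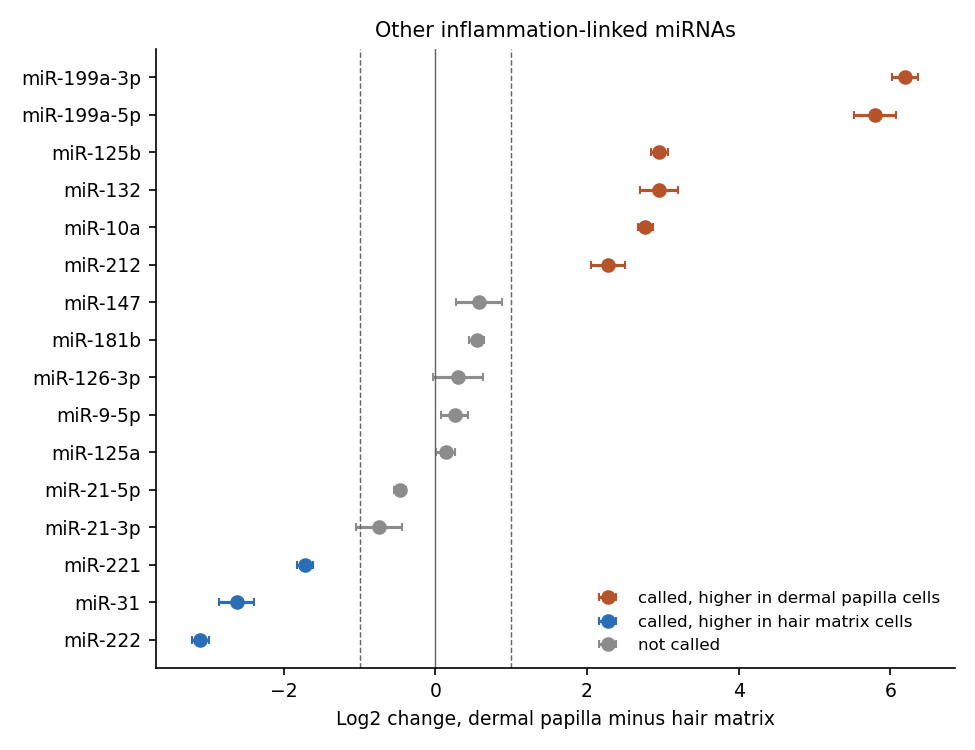
Log2 change, dermal papilla minus hair matrix, with its 95% limma interval, for the 16 tested entries of the inflammation list. The 6 entries called higher in dermal papilla cells lie right of the dashed 2-fold line, the 3 called higher in hair matrix cells lie left of it, and 7 were not called.

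miR-146a and miR-155 are abundant in blood and immune cells, so miRNAs that mark those cells are given beside them. Of 8 such entries 3 were tested and none was called by limma, although all 3 had p below 0.05 before and after adjustment, with changes below 2-fold on the log2(RPM + 1) scale. Summed, the 8 entries held 380 to 532 RPM in dermal papilla libraries and 302 to 371 RPM in hair matrix libraries, most of it miR-342 at 418 ± 82.3 RPM in papilla cultures and 316 ± 37.1 RPM in matrix cultures. miR-451, a red cell miRNA, was at 17.5 ± 1.20 RPM in papilla cultures and 8.77 ± 1.73 RPM in matrix cultures. miR-150, a lymphocyte miRNA, was at 1.54 ± 0.278 RPM in papilla cultures and 0.465 ± 0.197 RPM in matrix cultures, which is 3.31-fold in RPM but a log2 change of 0.80 on the log2(RPM + 1) scale. These calls moved with the setting, each time to higher in dermal papilla cells. miR-150 was called by edgeR and DESeq2 on whole reads, and by limma with a pseudocount of 0.5, at a log2 change of 1.09, and with RPM computed without the 5 most abundant entries, at 1.02. miR-451 was called by DESeq2, and by limma without hair matrix replicate 3, at 1.06. Both arms of miR-142, and miR-223, all known from white blood cells, averaged below 1 RPM in each cell type. The lymphocyte miRNA miR-150 did so only in matrix cultures. miR-142-3p had no read in any dermal papilla library and averaged 0.0135 RPM in matrix cultures. miR-142-5p averaged 0.0697 RPM in papilla cultures and 0.0139 RPM in matrix cultures, and miR-223 averaged 0.652 RPM in papilla cultures and 0.410 RPM in matrix cultures. The part of the markers that were detected in the levels of the 3 members was not tested.

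The cattle-named entries most like each member were ranked by Euclidean distance between log2(RPM + 1) profiles centred over the 6 libraries, among 412 entries. With 2 clusters of libraries, such a distance mostly reflects the size of the difference between the cell types. miR-10225b, miR-140 and miR-31 were closest to miR-146a, at distances of 0.181, 0.242 and 0.343. miR-140 was at 131 ± 9.83 RPM in papilla cultures and 823 ± 34.7 RPM in matrix cultures. miR-10225b was scarce, at 0.0139 ± 0.0242 RPM in papilla cultures and 5.46 ± 0.375 RPM in matrix cultures, and is close on this scale because the added 1 RPM shrinks its change.

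miR-222, miR-27a-3p and miR-2318 were closest to miR-146b, at distances of 0.263, 0.333 and 0.342. miR-222 was at 57.5 ± 0.582 RPM in papilla cultures and 501 ± 12.2 RPM in matrix cultures. miR-146b was only 10th in the order of likeness to miR-146a, at a distance of 0.740, and miR-146a was likewise 10th for miR-146b. miR-424-5p, miR-2284w and miR-541 were closest to miR-155, at 0.113, 0.122 and 0.134. miR-424-5p was at 19.9 ± 1.40 RPM in papilla cultures and 5.43 ± 0.386 RPM in matrix cultures, and the other two were scarce. miR-2284w averaged 2.23 RPM in papilla cultures and 0.0139 RPM in matrix cultures. miR-541 averaged 2.34 RPM in papilla cultures and had no read in matrix cultures. Both are close to miR-155 on this scale because the added 1 RPM shrinks their change. For miR-155 the miR-146 pair was near the far end of the order, with miR-146a 367th and miR-146b 380th of 412.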

How the data were processed

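The table was deposited for the whole series. The authors call its values TPM, and from the values they are RPM, since in each library 100% of them are whole multiples of 1 step within 0.001 read. Whole reads were recovered from these steps. Per the submitters' processing notes Trimmomatic, HISAT2 2.2.1.0 and DESeq 1.20.0 were used, without roles. Which build and miRNA reference were used, and how shared reads were counted, was not given in the sources used here. Length, in bases, stands beside each entry in the deposited file.

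Tests covered the 503 entries, 413 of them cattle-named, that reached 1 RPM in 3 or more of the 6 libraries. limma 3.58.1, run in R 4.3.3, was fitted to log2(RPM + 1) with 1 term for cell type, a mean trend in the variances and Benjamini-Hochberg adjustment over all 503. A call needs adjusted p below 0.05 and a change of 2-fold or more. The log2(RPM + 1) scale understates the change of low entries. Ratios within libraries were compared with exact permutation tests (scipy 1.17.1). The limma and edgeR steps, but not DESeq2, were run on simulated reads with the same dispersion for every entry. That was a check of the code, and no result here rests on it.

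Alternatives were other pseudocounts, filters, scalings and variance settings, a block for replicate number, edgeR 4.0.16 and DESeq2 1.42.0 on recovered whole reads (284 and 286 entries called), cattle-named entries only, and leaving out each library. The members and lists were chosen with earlier results of these data known. Beside the members, the text names every entry that shares their seed or is near-identical, the called and the 6 most abundant entries of the inflammation list, the 3 nearest profiles of each member and the 2 most abundant markers of lists it describes by member. miR-181b, miR-9-5p, miR-21-3p, miR-126-3p, miR-187, miR-223, miR-142 and miR-150 were named after their values were seen. Replicates differed by more than counting noise (chi-square per degree of freedom 44.2 to 119), and all 6 libraries were counted separately.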

Additional observations from a re-analysis of the deposited data

How the results depend on the processing

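The log2 changes of miR-146a, miR-146b, miR-155 and the miR-146 sum kept their direction and stayed called under each of the 14 alternatives and without any 1 library. Over the 14 alternatives miR-146a ranged from -2.87 to -2.50, miR-146b from -3.77 to -2.67, miR-155 from 1.26 to 1.80 and the sum from -2.98 to -2.62. Without 1 library the ranges were -2.67 to -2.51, -3.18 to -3.05, 1.71 to 1.75 and -2.76 to -2.65. Median centring moved the median log2 change of all entries to -0.29, from -0.01, and gave -2.87, -3.39 and 1.45 for the 3 members. The log2 ratio of miR-146a to miR-146b differed by 0.45 to 0.70 without 1 library, and that of miR-155 to miR-146a by 4.23 to 4.45. The inflammation list had 8 to 10 called entries under the alternatives, against 9, and 9 in each run without 1 library. The count over all entries, 227, was 117 with a pseudocount of 10 and 127 with a filter of 10 RPM, which tested 244 entries, and 226 to 231 without 1 library.

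With the replicate block, the adjusted p values were 3.11e-06 for miR-146a, 8.42e-07 for miR-146b and 3.11e-06 for miR-155 and 228 entries were called, so no call on a member changed. Deviations of same-numbered libraries correlated at 0.14, 0.0798 and -0.27 across entries, and not every library correlated best with its own number, so the numbers were not taken to pair the samples. Depth limits miR-146b most among the members, with 433 to 534 reads in dermal papilla libraries. It also limits both arms of miR-142, whose means lie below the floor in each cell type.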
